A study of Mus musculus with 4 samples.

Results

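The proximal signalling machinery of the T cell receptor (TCR) and the proteins that tune it were followed through 9 genes, Lck, Zap70, Lat, Themis, Cd5, Cd6, Ptpn6, Ptpn22 and Ubash3a, across thymocyte states in a Cgas KO and a WT library. The genes were chosen by name, as 9 of the 33696 genes in the deposited matrices. Each was found under its own symbol, and each passed the filter on low values in every comparison, so no gene is missing from any count over the 9.

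The study asked how cGAS, a cytosolic DNA sensor, bears on transcription in CD4+ CCR7+ thymocytes, the maturing helper-lineage cells of the thymus. The Cgas KO library came from Cd4Cre Cgasfl/fl mice, in which Cre recombinase under Cd4 control acts on a floxed Cgas gene. The WT library came from Cd4Cre mice, so Cre was present in both genotypes and the floxed allele in the Cgas KO mice. Each genotype had 1 droplet 3' expression library with a matched TCR library, and the number, age and sex of the mice and the floxed exons were not given in the sources used here. With 1 library per genotype there is no replicate check, and no test was made. The 95% intervals beside values are exact and reflect counting error alone.

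The TCR has no enzyme of its own. Lck, a Src-family kinase carried by the CD4 and CD8 coreceptors, phosphorylates the CD3 and zeta chains, Zap70 docks there, and Zap70 then phosphorylates the adaptor Lat, on which calcium and Ras signalling assemble. During selection in the thymus the strength of this signal decides between survival, deletion and lineage choice, and Themis, Cd5, Cd6 and phosphatases such as Ptpn6 set how strongly a given ligand is read.

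After filters on depth, gene number and mitochondrial share, 14381 Cgas KO and 12929 WT barcodes were kept, with 75605391 and 75001049 unique molecular identifiers (UMIs, counted transcripts) and medians of 4507 and 4943 UMIs per barcode. Cgas itself stood at 2.92 counts per 1000000 UMIs (CPM; 2.55 to 3.33) in the Cgas KO library and 4.49 CPM (4.03 to 5.0) in the WT library, a check of little weight because 3' tags may lie outside the deleted exons. The 2 libraries shared 276 kept barcodes, and 9.58% of Cgas KO and 9.0% of WT kept barcodes had 2 or more productive TCR beta chains, as doublets can have. By state this share ran between 6.15% in Cd8 lineage and 18% in Rag1+ barcodes of Cgas KO and between 6.03% and 15.6% in the same states of WT, with 14.4% in Cgas KO and 13.8% in WT Nr4a1/Egr-high barcodes. States were read from UMIs of genes outside the 9. Rag1+ barcodes, nearest the CD4 CD8 double-positive stage, numbered 501 in Cgas KO and 545 in WT, and the double-positive markers summed to 3506 and 3427 CPM there, against 105.7 CPM in the next stage of each library. Itm2a+ S1pr1- barcodes, taken as the semi-mature stage, numbered 6484 and 5604. Semi-mature markers summed to 1735 CPM in Cgas KO and 1635 CPM in WT there. They were higher in Rag1+ (1830 and 1856 CPM) and Cd8 lineage barcodes (1880 and 1776 CPM) and lower in S1pr1+ barcodes (1224 and 1161 CPM). These markers thus set the stage apart from S1pr1+ but not from Rag1+ barcodes. S1pr1+ barcodes, the mature stage that carries the exit receptor, numbered 4525 and 3958, and the mature markers summed to 5510 and 5381 CPM there against 3858 and 3808 CPM in Itm2a+ S1pr1- barcodes. Foxp3+ barcodes numbered 365 in Cgas KO and 499 in WT and Cd8 lineage barcodes 1366 and 1377. Regulatory T cell markers summed to 2214 CPM in Cgas KO and 1898 CPM in WT Foxp3+ barcodes, against 588 and 596.6 CPM in Itm2a+ S1pr1- barcodes. CD8 markers summed to 2315 and 2258 CPM in Cd8 lineage barcodes, against 168 and 193.3 CPM in Itm2a+ S1pr1- barcodes and 2404 CPM in Rag1+ barcodes of each library. These markers include the gate genes Cd8a and Cd8b1, so their contrast with Itm2a+ S1pr1- barcodes is largely set by the gate and is no independent check. Barcodes with 5 or more UMIs of the early TCR-response genes Nr4a1, Egr1, Egr2 and Egr3 together (Nr4a1/Egr-high) numbered 2187 and 2030, and most of them also belong to one of the last 2 stages.

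**Figure D1:**
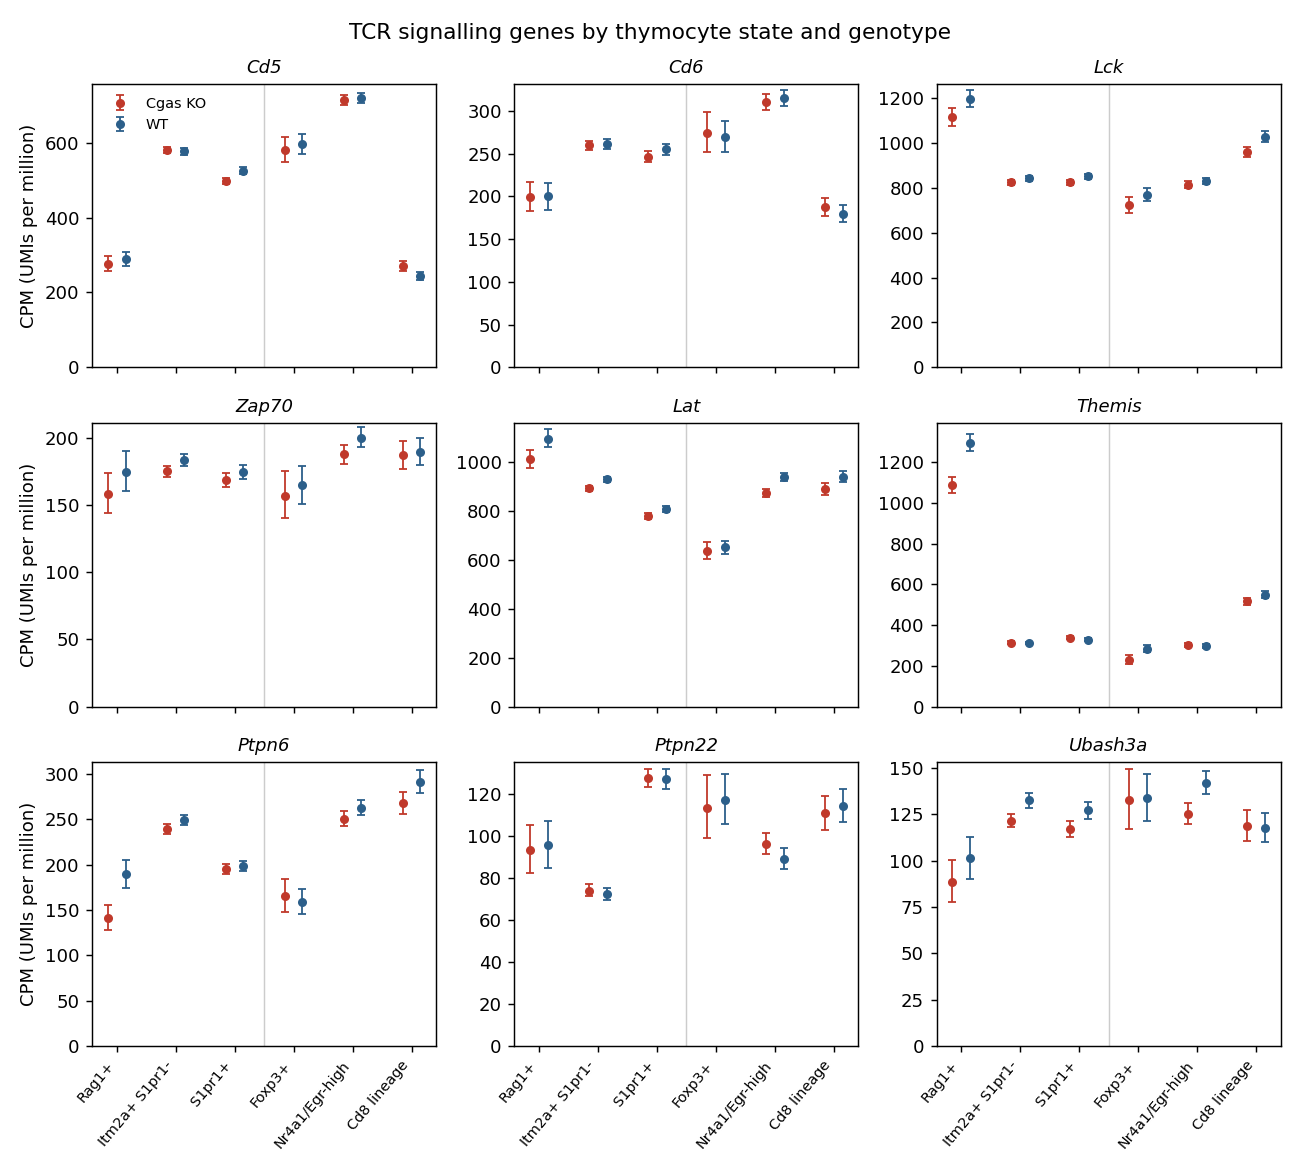
Level in CPM (vertical axis, from 0) of each gene in the 6 thymocyte states (horizontal axis), Cgas KO in red left of WT in blue, with exact 95% Poisson intervals. Themis is highest in Rag1+ barcodes, Cd5 is lowest in Rag1+ and Cd8 lineage barcodes, and the libraries lie close together in most states.

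Between the Rag1+ and Itm2a+ S1pr1- stages the 9 genes differed in opposite directions, in both libraries. Themis was 3 to 4 times lower in Itm2a+ S1pr1- barcodes, Lck and Lat were moderately lower, Zap70 stayed near the same level, and Cd5 was about 2 times higher. Of the 9 genes, 3 were past 1.5-fold in Cgas KO (Cd5 and Ptpn6 higher, Themis lower) and 2 in WT (Cd5 higher, Themis lower). Of all genes measured, 21.5% were past this fold in Cgas KO and 18.4% in WT, so the counts are not far from the background, and it is the sizes for Themis and Cd5 that stand out among the 9. The median log2 ratio of the 9 genes was 0.15 in Cgas KO and 0.07 in WT, against -0.10 in both libraries for all genes measured. That overall shift depends on the scaling, as it was 0.05 in Cgas KO and 0.06 in WT under TMM factors.

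Themis, the thymocyte adaptor that is needed for positive selection, stood at 313.5 CPM in Itm2a+ S1pr1- barcodes against 1086 CPM in Rag1+ barcodes of the Cgas KO library. In the WT library the same stages had 313.2 and 1296 CPM. The ratios of 0.289 (0.277 to 0.301) in Cgas KO and 0.242 (0.233 to 0.251) in WT were the lowest of the 9 genes, and without barcodes of 2 or more beta chains they were 0.271 and 0.228. In S1pr1+ barcodes Themis was at 337.2 CPM in Cgas KO and 327.3 CPM in WT, so nearly all of its difference lay between the first and second stages. Within the Rag1+ state its level followed the Rag1 UMIs of the barcode. In Cgas KO it was 848.6, 1185 and 1336 CPM in barcodes with 1, 2 to 3 and 4 or more Rag1 UMIs, a ratio of last to first bin of 1.57 (1.43 to 1.74), and in WT it was 883.2, 1372 and 1650 CPM, a ratio of 1.87 (1.72 to 2.03).

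**Figure D2:**
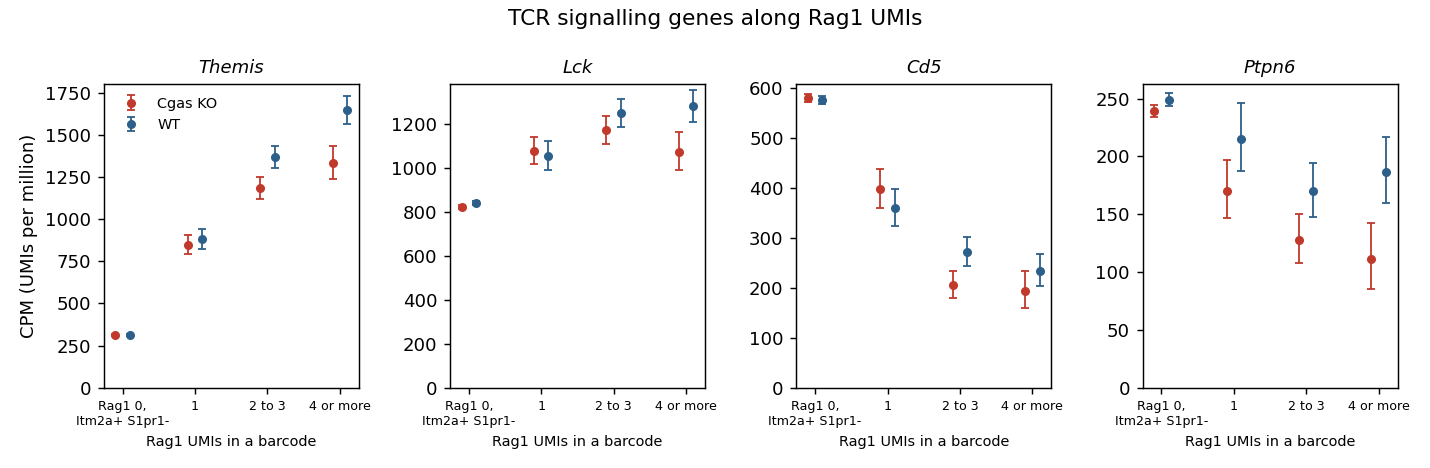
Level in CPM (vertical axis, from 0) of Themis, Lck, Cd5 and Ptpn6 in Itm2a+ S1pr1- barcodes without a Rag1 UMI and in Rag1+ barcodes binned by their Rag1 UMIs (horizontal axis), Cgas KO in red and WT in blue, with exact 95% Poisson intervals. Themis climbs along the bins to 1336 CPM in Cgas KO and 1650 CPM in WT, while Cd5 is lowest in the bins richest in Rag1.

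Lck, the kinase that starts the signal, followed the same order of states as Themis with a far smaller spread. It was at 824.2 CPM in Itm2a+ S1pr1- against 1116 CPM in Rag1+ barcodes in Cgas KO (ratio 0.738, 0.712 to 0.767), and at 841.6 against 1198 CPM in WT (0.703, 0.679 to 0.727). Between the 2 later stages it did not differ beyond counting error, with S1pr1+ levels of 825.4 CPM in Cgas KO and 851.8 CPM in WT. Zap70, the kinase recruited to the phosphorylated receptor, varied least of the 9, as its highest state exceeded its lowest by 1.2-fold in Cgas KO and 1.22-fold in WT. It had 175.2 against 158.4 CPM in Cgas KO and 184 against 175.1 CPM in WT (Itm2a+ S1pr1- against Rag1+), and this small difference changed side when barcodes were thinned to equal depth, with ratios of 0.95 in Cgas KO and 0.833 in WT. Thinning also changed which barcodes entered each stage, and the cause of the change was not tested. Lat, the membrane adaptor, was lower at each later stage. It was at 1013, 893.9 and 780.6 CPM in the Rag1+, Itm2a+ S1pr1- and S1pr1+ stages of the Cgas KO library and at 1097, 930.9 and 808.1 CPM in WT. Its S1pr1+ over Rag1+ ratio was 0.771 (0.741 to 0.802) in Cgas KO and 0.736 (0.710 to 0.764) in WT.

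Cd5 and Cd6 are related scavenger-receptor surface proteins that dampen TCR signalling, and surface CD5 is widely used as a gauge of the self-reactivity at which a thymocyte was selected. Cd5 was at 579.4 CPM in Itm2a+ S1pr1- against 277.2 CPM in Rag1+ barcodes of the Cgas KO library, a ratio of 2.09 (1.94 to 2.25). In WT it was at 576.5 against 288.2 CPM, a ratio of 2.0 (1.87 to 2.14). Without barcodes of 2 or more beta chains these ratios of Cd5 were 2.5 in Cgas KO and 2.27 in WT. It was lower again in S1pr1+ barcodes, at 497.8 CPM in Cgas KO and 524.7 CPM in WT, with S1pr1+ over Itm2a+ S1pr1- ratios of 0.859 (0.840 to 0.879) and 0.910 (0.890 to 0.931). Among Nr4a1/Egr-zero barcodes this later difference was 0.921 (0.884 to 0.960) in Cgas KO and 1.0 (0.960 to 1.04) in WT. Within the Rag1+ state Cd5 ran against Themis, with 397.1, 205.3 and 194.1 CPM in Cgas KO and 358.9, 271.1 and 233.1 CPM in WT along the 3 Rag1 bins. Cd6 repeated the direction of Cd5 at a smaller size, with Itm2a+ S1pr1- over Rag1+ ratios of 1.30 (1.2 to 1.42) in Cgas KO and 1.31 (1.21 to 1.42) in WT.

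The 3 genes of the last group dampen the signal inside the cell and did not move as one. Ptpn6 encodes SHP-1, a phosphatase that restrains TCR signalling, and was at 239.4 against 141 CPM in Cgas KO (ratio 1.70, 1.53 to 1.89) and at 249.2 against 189.2 CPM in WT (1.32, 1.21 to 1.43) between Itm2a+ S1pr1- and Rag1+ barcodes. The libraries differed more in their Rag1+ levels of Ptpn6 than in the later stage. In S1pr1+ barcodes Ptpn6 stood at 195.1 CPM in Cgas KO and 198 CPM in WT. Ubash3a, which encodes STS-2, a suppressor of TCR signalling, was higher after the Rag1+ stage by 1.38-fold (1.21 to 1.57) in Cgas KO and 1.31-fold (1.17 to 1.47) in WT.

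Ptpn22, a phosphatase that acts on Lck, had a course of its own. It was at its lowest of all 6 states in Itm2a+ S1pr1- barcodes and at its highest in S1pr1+ barcodes, in both libraries. Its S1pr1+ and Foxp3+ levels did not differ beyond counting error, with ratios of 1.125 (0.983 to 1.292) in Cgas KO and 1.086 (0.976 to 1.211) in WT. In the Cgas KO library the levels were 93.13, 73.95 and 127.4 CPM over the Rag1+, Itm2a+ S1pr1- and S1pr1+ stages, and in WT they were 95.42, 72.21 and 127 CPM. Its S1pr1+ over Itm2a+ S1pr1- ratios of 1.72 (1.64 to 1.82) in Cgas KO and 1.76 (1.67 to 1.86) in WT made it the 1 gene of 9 past 1.5-fold in this comparison, where 5.47% of all genes in Cgas KO and 5.62% in WT were. The other 8 genes lay between 0.815 and 1.08 in Cgas KO and between 0.795 and 1.05 in WT. The difference in Ptpn22 was also present among barcodes without any Nr4a1 or Egr UMI, at 1.79 (1.64 to 1.96) in Cgas KO and 1.68 (1.53 to 1.83) in WT. The medians of the 9 genes, -0.06 on the log2 scale in both libraries, were close to those of all genes, -0.07 in Cgas KO and -0.08 in WT. From the Rag1+ to the S1pr1+ stage 2 of 9 genes were past 1.5-fold, Cd5 higher and Themis lower, where 27.4% of all genes in Cgas KO and 23.5% in WT were.

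**Figure D3:**
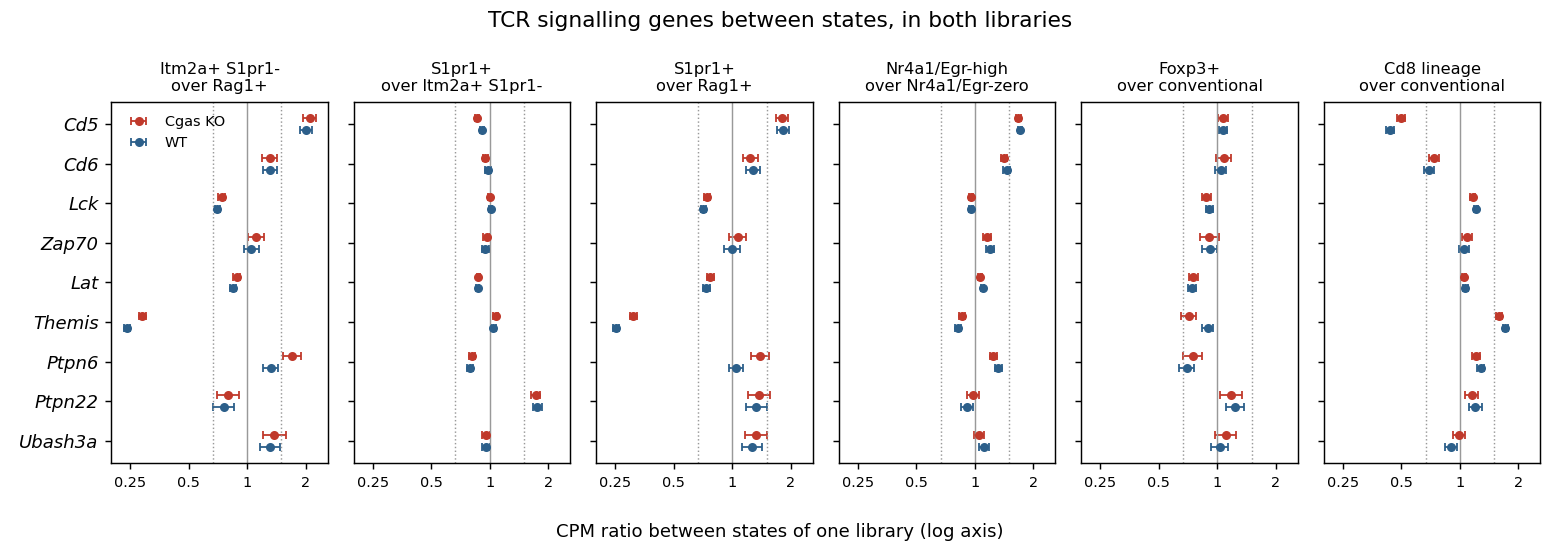
CPM ratio between 2 states of a library (horizontal log axis) for each gene (vertical axis) in 6 comparisons of states, Cgas KO in red above WT in blue, with exact 95% intervals and dotted lines at 1.5-fold either way. Themis lies far left in both panels against Rag1+, Ptpn22 is the only gene past the line in the second, and Cd5 crosses it in 4 of the 6.

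The promoter windows of Themis, Lck and Cd5 are shown because Themis and Lck were highest in Rag1+ barcodes and Cd5 was low there. Each is a RefSeq window on GRCm38.p6 from 250 bases before to 50 after the annotated start, written 5′ to 3′ on the strand of the gene, and for Themis and Lck it is the first of 2 windows in the table. Capitals mark letters that match a searched motif on either strand. The motifs were GCGNGGGCG for EGR factors, AAAGGTCA for NR4A factors, TGTGGT for RUNX factors and CAGGTG for E-box factors.
Themis, chr10:28668110-28668409, plus strand: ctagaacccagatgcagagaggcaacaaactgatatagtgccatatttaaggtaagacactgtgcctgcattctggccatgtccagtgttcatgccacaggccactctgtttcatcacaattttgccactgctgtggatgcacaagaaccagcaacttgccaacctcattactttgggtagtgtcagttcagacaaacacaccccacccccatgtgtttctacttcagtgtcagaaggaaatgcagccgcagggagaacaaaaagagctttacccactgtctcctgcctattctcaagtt
Lck, chr4:129573592-129573891, minus strand: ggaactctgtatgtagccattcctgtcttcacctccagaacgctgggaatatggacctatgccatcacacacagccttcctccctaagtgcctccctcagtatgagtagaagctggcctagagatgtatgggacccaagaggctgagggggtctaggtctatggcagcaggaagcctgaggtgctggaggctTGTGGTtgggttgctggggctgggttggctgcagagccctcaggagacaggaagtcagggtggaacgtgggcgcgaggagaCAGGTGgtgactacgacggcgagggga
Cd5, chr19:10738925-10739224, minus strand: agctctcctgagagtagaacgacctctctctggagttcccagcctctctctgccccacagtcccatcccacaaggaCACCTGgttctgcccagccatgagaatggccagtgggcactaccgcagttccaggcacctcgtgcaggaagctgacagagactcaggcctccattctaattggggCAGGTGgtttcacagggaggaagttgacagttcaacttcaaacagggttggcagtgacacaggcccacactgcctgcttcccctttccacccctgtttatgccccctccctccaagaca
The Cd5 window held the E-box letters at -69 from the start on the same strand and at -174 on the opposite strand. The Lck window held the RUNX letters at -58 and the E-box letters at 24 bases after the start, and the Themis window held none of the 4 motifs. Of the 32851 promoters in the table, 20.2% held the E-box letters and 16.8% the RUNX letters, so such matches are common. Windows were found for 8 of the 9 genes, all but Cd6, and none of the 8 held the EGR or the NR4A letters, which occur in 5.55% and 1.51% of all promoters. A match describes the letters only, and the absence of a match says only that these letters are not in this window. Cd5 and Cd6 are neighbours on chromosome 19, with 0 protein-coding genes between them in the RefSeq annotation.

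Across barcodes ordered by their own TCR-response genes, the surface dampeners were graded and the kinases and adaptors much less so. Cd5 was 1.68-fold higher (1.63 to 1.73) in Nr4a1/Egr-high than in Nr4a1/Egr-zero barcodes in Cgas KO and 1.71-fold (1.66 to 1.76) in WT. It was the only one of the 9 past 1.5-fold, where 2.39% of all genes in Cgas KO and 3.07% in WT were. In the bins of 0, 1, 2 to 4, 5 to 9 and 10 or more Nr4a1 and Egr UMIs, Cd5 was at 425.3, 502.6, 569.3, 641.9 and 796.0 CPM in Cgas KO. The WT levels in the same bins were 420.8, 523.4, 591.6, 662.4 and 772.1 CPM. Cd5 thus increased at every step in both libraries, and the last bin exceeded the first by 1.87-fold (1.81 to 1.94) in Cgas KO and 1.84-fold (1.78 to 1.90) in WT. The bins also increase in depth, the median going up to 5276.5 UMIs in Cgas KO and 5732 UMIs in WT in the last bin, and the increase of Cd5 at every step was also present with barcodes thinned to 2000 UMIs.

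**Figure D4:**
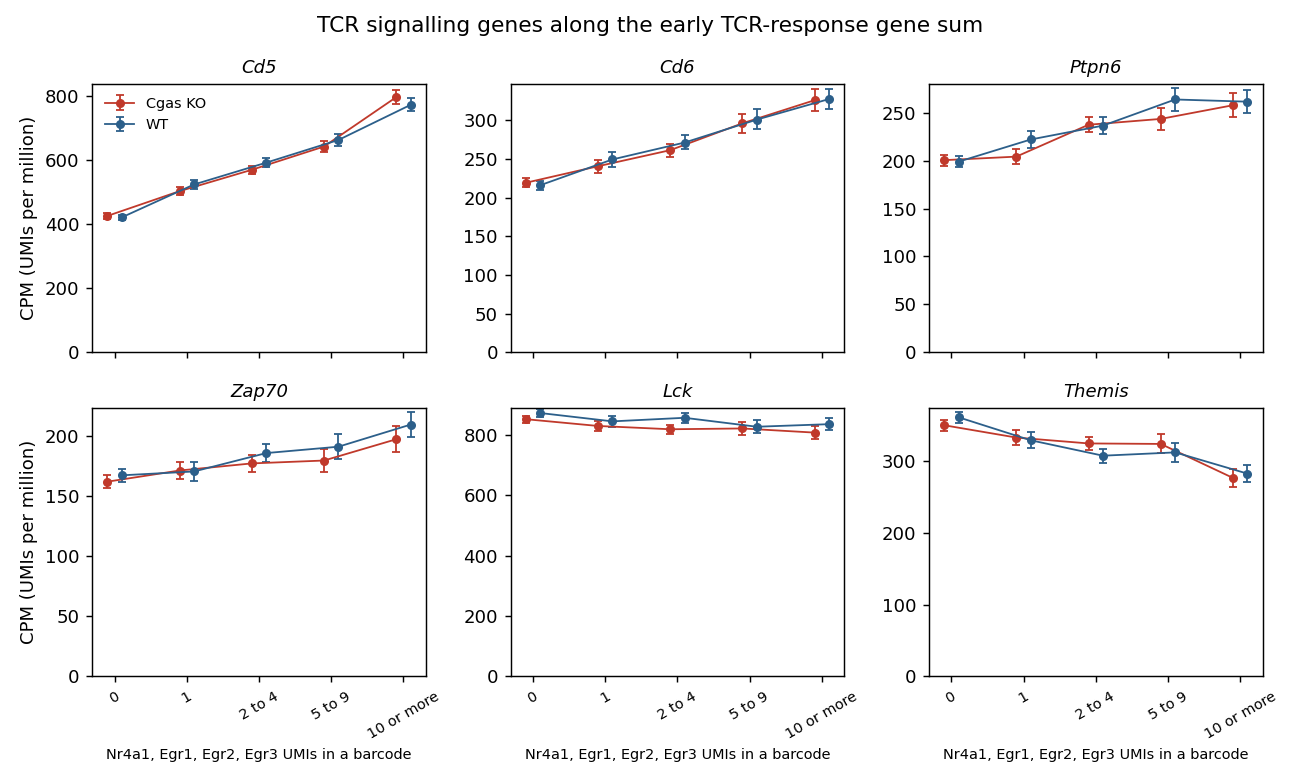
Level in CPM (vertical axis, from 0) of Cd5, Cd6, Ptpn6, Zap70, Lck and Themis in bins of the summed Nr4a1, Egr1, Egr2 and Egr3 UMIs of a barcode (horizontal axis), Cgas KO in red and WT in blue, with exact 95% Poisson intervals. Cd5 climbs to 796.0 CPM in Cgas KO and 772.1 CPM in WT in the last bin, Lck is nearly level, and Themis is lowest in the last bin.

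Cd6 was graded in the same direction, with 219.3, 240.7, 261.5, 296.3 and 326.2 CPM in Cgas KO and 216.1, 249.5, 271.4, 301.1 and 327.7 CPM in WT along the bins. With thinned barcodes Cd6 increased at every step in Cgas KO. In thinned WT barcodes it was lower in the last bin, at 354.6 CPM (298.1 to 418.7), than in the bin before, at 392.4 CPM (355.9 to 431.6). Its Nr4a1/Egr-high over Nr4a1/Egr-zero ratio of 1.42 (1.36 to 1.47) in Cgas KO and 1.46 (1.40 to 1.52) in WT was short of 1.5-fold. Both genes showed it inside both stages after Rag1. Within Itm2a+ S1pr1- barcodes Cd5 was at 1.66 (1.6 to 1.72) in Cgas KO and 1.73 (1.67 to 1.80) in WT, and Cd6 at 1.49 (1.41 to 1.57) and 1.54 (1.45 to 1.62). Within S1pr1+ barcodes Cd5 was at 1.54 (1.47 to 1.62) in Cgas KO and 1.59 (1.52 to 1.66) in WT, and Cd6 at 1.30 (1.21 to 1.39) and 1.31 (1.23 to 1.40).

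The intracellular genes spread around these. Ptpn6 was 1.25-fold higher (1.2 to 1.30) in Nr4a1/Egr-high barcodes of the Cgas KO library and 1.32-fold (1.27 to 1.38) in WT, and Zap70 1.16-fold (1.1 to 1.22) and 1.2-fold (1.14 to 1.26). Lat and Ubash3a were within 1.11-fold of the Nr4a1/Egr-zero level in both libraries, and Lck was slightly lower, at 0.956 in Cgas KO and 0.953 in WT. Themis was the lowest of the 9 in this comparison, at 0.862 (0.831 to 0.895) in Cgas KO and 0.822 (0.793 to 0.853) in WT. Ptpn22 lay at 0.981 (0.917 to 1.05) in Cgas KO and 0.909 (0.848 to 0.974) in WT. The median log2 ratio of the 9 was 0.09 in Cgas KO and 0.15 in WT, against 0.03 for all genes in both libraries.

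In Foxp3+ barcodes, the state that holds developing regulatory T cells, Lat, Themis, Ptpn6 and Lck were lower than in conventional barcodes (both CD4 stages after Rag1 together), and Cd5 and Cd6 were at about the same level. None of the 9 was past 1.5-fold in either library, where 8.46% of all genes in Cgas KO and 6.82% in WT were. Lat stood at 638.5 against 846.7 CPM in Cgas KO (ratio 0.754, 0.713 to 0.797) and at 651.7 against 880.3 CPM in WT (0.740, 0.709 to 0.773). Ptpn6 stood at 165.5 against 221 CPM in Cgas KO (0.749, 0.670 to 0.835) and at 158.9 against 228.1 CPM in WT (0.697, 0.637 to 0.761). Both were therefore lower by a similar factor in both genotypes. Themis was at 230.6 against 323.4 CPM in Cgas KO (0.713, 0.649 to 0.782) and at 284.2 against 319 CPM in WT (0.891, 0.833 to 0.952). Ptpn22 was the gene of the 9 furthest above conventional barcodes, at 1.18 (1.03 to 1.34) in Cgas KO and 1.23 (1.11 to 1.37) in WT. Zap70 was also somewhat lower, at 157 against 172.5 CPM in Cgas KO and 164.8 against 180.2 CPM in WT. Ubash3a was at 132.7 against 119.8 CPM in Cgas KO and 133.8 against 130.4 CPM in WT. With the gate at 2 or more Foxp3 UMIs, which left 126 Cgas KO and 212 WT barcodes, Lat was at 0.632 (0.570 to 0.699) in Cgas KO and 0.659 (0.615 to 0.706) in WT and Ptpn6 at 0.612 (0.495 to 0.748) and 0.630 (0.547 to 0.722). Themis at that gate was at 0.583 (0.489 to 0.691) in Cgas KO and 0.880 (0.796 to 0.970) in WT. This put 3 of 9 genes past 1.5-fold in Cgas KO and 2 in WT, where 21.1% and 14.3% of all genes were. Dendritic cell genes, of which 4 of 7 were detected in Cgas KO and 5 of 7 in WT with Xcr1 and Sirpa at 0 in both, summed to 42.2 CPM in Foxp3+ barcodes of the Cgas KO library and 213 CPM in WT, and to 44.1 CPM in WT without the 1 barcode that held most of them. Leaving out the barcodes rich in such RNA left none of the 9 past 1.5-fold.

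Cd8 lineage barcodes carried the lowest Cd5 and Cd6 of the 6 states, level with Rag1+ barcodes within counting error in Cgas KO, and more Themis than the CD4 barcodes after Rag1. Cd5 was at 270.9 against 545.4 CPM in conventional barcodes of the Cgas KO library (ratio 0.497, 0.473 to 0.521) and at 243.8 against 555.2 CPM in WT (0.439, 0.418 to 0.461). Themis was at 516.3 against 323.4 CPM in Cgas KO (1.6, 1.54 to 1.66) and at 548 against 319 CPM in WT (1.72, 1.66 to 1.78). These were the 2 of 9 genes past 1.5-fold, where 6.91% of all genes in Cgas KO and 8.03% in WT were. Cd6 followed Cd5 at 0.737 (0.695 to 0.781) in Cgas KO and 0.695 (0.656 to 0.735) in WT. Lck followed Themis at 1.16 (1.13 to 1.19) in Cgas KO and 1.22 (1.19 to 1.25) in WT, and Ptpn6 was at 1.21 (1.15 to 1.27) and 1.28 (1.22 to 1.34). Double-positive markers, of which Cd8b1 is also a gate gene here, summed to 999 CPM in Cgas KO and 941 CPM in WT Cd8 lineage barcodes, and their part in the Themis and Cd5 values was not tested. The sort was for CD4, so these are barcodes with CD8 transcripts and no Cd4 UMI inside a CD4+ gate.

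Both differences were found at matched stages. Within Itm2a+ S1pr1- barcodes Cd5 was at 0.526 (0.496 to 0.557) of the CD4 level in Cgas KO and 0.425 (0.400 to 0.451) in WT, and Themis at 1.59 and 1.64. Within S1pr1+ barcodes, where 142 Cgas KO and 137 WT Cd8 lineage barcodes lay, Cd5 was at 0.655 (0.583 to 0.734) in Cgas KO and 0.633 (0.560 to 0.712) in WT, and Themis at 1.34 (1.21 to 1.48) and 1.5 (1.36 to 1.66). Ptpn22 was at 1.45 (1.31 to 1.61) in Cgas KO and 1.52 (1.38 to 1.68) in WT within Itm2a+ S1pr1- barcodes, but at 0.948 (0.779 to 1.14) in Cgas KO and 1.14 (0.947 to 1.37) in WT within S1pr1+ barcodes, where the intervals include 1.

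Setting the 6 states of each gene in order gave the same sequence in both libraries for Cd5, Cd6, Lck and Themis. Cd5 and Cd6 both increased through Cd8 lineage, Rag1+, S1pr1+, Itm2a+ S1pr1-, Foxp3+ and Nr4a1/Egr-high, and Lck and Themis both increased through Foxp3+, Nr4a1/Egr-high, Itm2a+ S1pr1-, S1pr1+, Cd8 lineage and Rag1+. The highest state exceeded the lowest by 4.71-fold in Cgas KO and 4.56-fold in WT for Themis and by 2.64-fold and 2.95-fold for Cd5. For Ptpn6 the factor was 1.90 in Cgas KO and 1.83 in WT, for Ptpn22 1.72 and 1.76, for Cd6 1.66 and 1.75, for Lat 1.59 and 1.68, for Lck 1.54 and 1.56, and for Ubash3a 1.5 and 1.40. Several neighbours in these orders did not differ beyond counting error. Cd5 in Itm2a+ S1pr1- and Foxp3+ barcodes was such a pair in both libraries, and so was Cd6 in those states. Lck was alike in this sense in Itm2a+ S1pr1- and S1pr1+ barcodes. Its Nr4a1/Egr-high level was close to these, but that state shares barcodes with both stages, so the interval does not apply. Within Itm2a+ S1pr1- barcodes its Nr4a1/Egr-high over Nr4a1/Egr-zero ratio was 0.956 (0.927 to 0.986) in Cgas KO and 0.925 (0.897 to 0.953) in WT. Within S1pr1+ barcodes it was 0.989 (0.951 to 1.027) and 1.001 (0.964 to 1.039). For Zap70 the 1 neighbouring pair that differed was Cd8 lineage over Itm2a+ S1pr1- in Cgas KO, at 1.07 (1.01 to 1.14).

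Between genotypes the 9 genes were close to each other over all kept barcodes. None was past 1.2-fold, where 2.98% of all genes were, and the Cgas KO over WT ratios ran between 0.929 (0.902 to 0.956) for Ubash3a and 1.0 (0.971 to 1.04) for Ptpn22. Lck was at 849.9 CPM in Cgas KO and 881.4 CPM in WT, a ratio of 0.964 (0.954 to 0.975), and Cd5 at 504.1 CPM in Cgas KO and 506 CPM in WT, a ratio of 0.996 (0.982 to 1.01). The median log2 ratio of the 9 was -0.05, against 0.00 for all genes, so the 9 lay slightly on the lower side in Cgas KO. In Itm2a+ S1pr1- barcodes none of 9 was past 1.2-fold, where 3.23% of all genes were, in S1pr1+ barcodes none, where 3.94% were, in Nr4a1/Egr-high barcodes none, where 6.10% were, and in Cd8 lineage barcodes none, where 9.92% were.

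Over all kept barcodes and in each of the 6 states, the median log2 ratio of the 9 genes was below that of all genes. It ran between -0.116 in Rag1+ and -0.029 in Nr4a1/Egr-high barcodes, where all genes had -0.00957 and 0.00493. These comparisons share barcodes. Ubash3a was at 121.7 CPM in Cgas KO and 132.6 CPM in WT Itm2a+ S1pr1- barcodes (0.918, 0.881 to 0.958), at 117.1 and 127.2 CPM in S1pr1+ barcodes, and at 125.4 and 141.9 CPM in Nr4a1/Egr-high barcodes (0.884, 0.828 to 0.942). With barcodes thinned to 2000 UMIs the first and the last of these ratios were 1.04 and 1.02, on the other side of 1, and the cause was not tested. Lat was slightly lower in Cgas KO, at 893.9 and 930.9 CPM in Itm2a+ S1pr1- barcodes (0.960, 0.945 to 0.976) and at 875 and 938.7 CPM in Nr4a1/Egr-high barcodes (0.932, 0.909 to 0.955). Without a second library of either genotype, these small ratios cannot be told apart from differences between libraries.

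The 2 smallest states gave the 2 ratios past 1.2-fold. In Rag1+ barcodes Ptpn6 was at 141 CPM in Cgas KO and 189.2 CPM in WT (0.745, 0.654 to 0.848), the 1 gene of 9 past the fold where 26.4% of all genes were, and Themis was at 1086 and 1296 CPM (0.838, 0.799 to 0.879). In Foxp3+ barcodes Themis was at 230.6 CPM in Cgas KO and 284.2 CPM in WT (0.811, 0.724 to 0.908), again 1 of 9 where 21.2% of all genes were. Such shares are no more than the background of these small states. Macrophage and monocyte markers, at 0.725 CPM in Cgas KO and 15.4 CPM in WT Rag1+ barcodes (4.80 CPM in WT without 1 barcode), differed in the same direction as Ptpn6, and their part in its ratio was not tested. Among barcodes with 3000 to 6000 UMIs the Ptpn6 ratio was 0.93 and the Themis ratio in Foxp3+ barcodes was 1.12, on the other side of 1.

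The Rag1+ states of the genotypes also differed in makeup. Barcodes with 4 or more Rag1 UMIs were 106 of 501 in Cgas KO and 164 of 545 in WT, the median depth was 4151 UMIs in Cgas KO and 3585 UMIs in WT, and the mature markers summed to 1955 and 2304 CPM. Within the bins of 1, 2 to 3 and 4 or more Rag1 UMIs the Cgas KO over WT ratio of Themis was 0.961 (0.875 to 1.06), 0.864 (0.804 to 0.929) and 0.810 (0.741 to 0.885). That of Ptpn6 was 0.791 (0.646 to 0.968), 0.753 (0.605 to 0.936) and 0.596 (0.439 to 0.801). Both were thus furthest from 1 among the barcodes richest in Rag1, though the intervals of their first and last bins overlapped. Ubash3a at 0.63 (0.425 to 0.917), Lck at 0.838 (0.759 to 0.926) and Lat at 0.888 (0.8 to 0.985) were also furthest from 1 there. So were Zap70 and Ptpn22, with intervals that include 1. Cd5 and Cd6 were furthest in the bin of 2 to 3 Rag1 UMIs. The share of all genes past the fold was not counted in these bins.

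**Figure D5:**
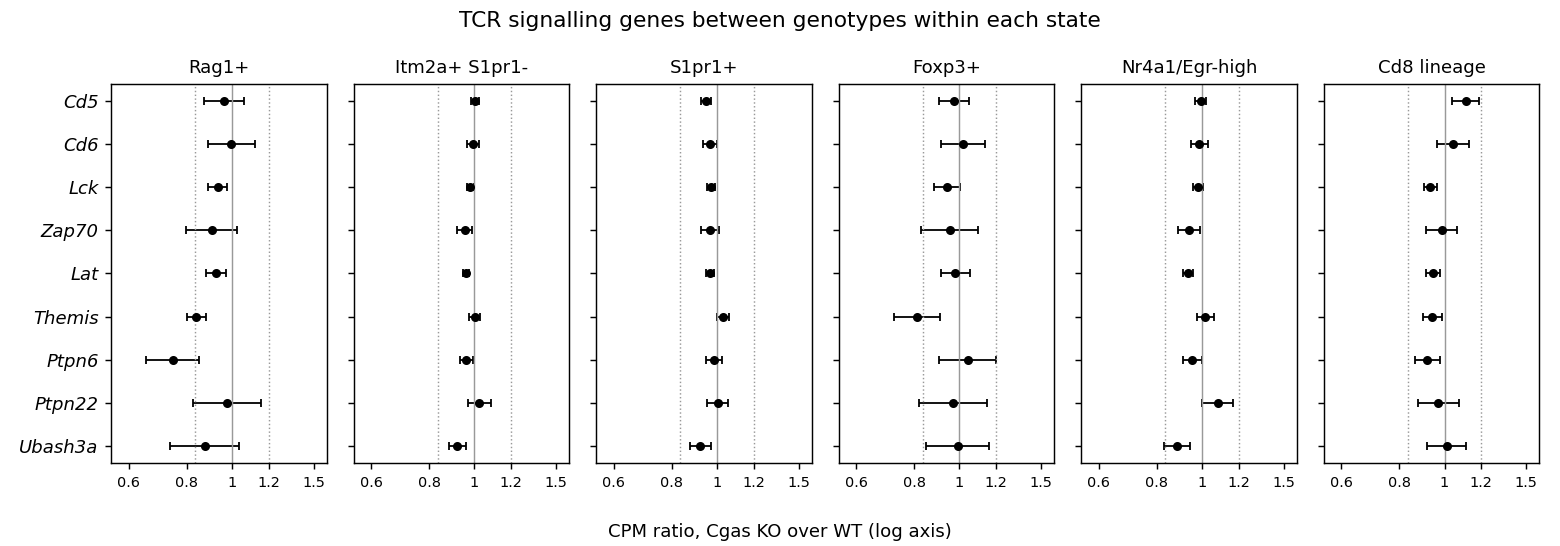
CPM ratio of Cgas KO over WT (horizontal log axis) for each gene (vertical axis) within each of the 6 states, with exact 95% intervals and dotted lines at 1.2-fold either way. Among these points, Ptpn6 in Rag1+ barcodes and Themis in Foxp3+ barcodes lie past them.

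Of 49 other genes of the pathway, grouped as the TCR complex (4), kinases and their regulators (6), adaptors and effectors (19) and attenuators (20), the attenuators supplied most of the larger differences between states. From Itm2a+ S1pr1- to S1pr1+ barcodes 4 genes were past 1.5-fold higher and 0 lower in each library, and all 4 were attenuators. Of all genes, 3.46% were higher and 2.01% lower in Cgas KO, and 3.51% and 2.11% in WT. Ctla4, an inhibitory receptor, was at 1.99 in Cgas KO and 2.08 in WT, Dgka, a kinase that removes diacylglycerol, at 1.75 and 1.76, Cblb, a ubiquitin ligase, at 1.70 in both libraries, and Ubash3b, the paralogue of Ubash3a, at 1.51 and 1.67. Ptpn22 thus shared its direction at this step with these 4, while Ubash3a itself was at 0.962 (0.917 to 1.01) in Cgas KO and 0.960 (0.916 to 1.0) in WT. From Rag1+ to Itm2a+ S1pr1- barcodes 8 of the pathway genes were past 1.5-fold higher and 4 lower in Cgas KO, where 7.41% of all genes were higher and 14.1% lower, and 5 were higher and 4 lower in WT, where 5.53% and 12.9% were. The adhesion receptor Cd2 (2.47 in Cgas KO, 2.14 in WT) and the inhibitory receptor Btla (2.41 and 2.34) were higher, and the adaptors Sla2 (0.393 and 0.338) and Sla (0.517 and 0.457) and the ubiquitin ligase Cbl (0.443 and 0.413) were lower.

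Along with Cd5, the genes past 1.5-fold in Nr4a1/Egr-high barcodes were Pdcd1, which encodes the inhibitory receptor PD-1 (1.92 in Cgas KO, 1.76 in WT), the lipid phosphatase gene Inpp5d (1.64 and 1.51), the adaptor gene Sh2d2a (1.52 and 1.55) and, in Cgas KO, Sla (1.56). Without Cd5 these were 4 of 47 measured pathway genes in Cgas KO and 3 of 47 in WT, where 2.39% and 3.07% of all genes were past the fold. In Foxp3+ barcodes Ctla4 was at 4.38 in Cgas KO and 4.90 in WT relative to conventional barcodes and Pdcd1 at 2.88 and 2.80. Past the fold in Cgas KO only were Cblb (1.57) and Ubash3b (1.52), which were higher, and Ptpn2 (0.666), which was lower. These were 5 of 47 measured pathway genes in Cgas KO and 2 of 47 in WT, where 8.46% and 6.82% of all genes were past the fold. Ctla4 is also one of the markers by which the Foxp3+ state was checked. In Cd8 lineage barcodes 6 of these genes were lower in Cgas KO, where 3.96% of all genes were, and 5 in WT, where 4.60% were, among them Ubash3b (0.481 and 0.422), Ctla4 (0.583 and 0.441), Btla (0.583 and 0.448) and Cblb (0.617 and 0.538), while Sla2 (1.71 and 1.95) and, past the fold in WT, Lax1 (1.18 and 1.52) were higher, as 2.95% of all genes were in Cgas KO and 3.43% in WT. The low Cd5 and Cd6 of that state therefore stood beside several other low attenuators.

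Between genotypes 1 of the measured pathway genes was past 1.2-fold over all kept barcodes, where 2.98% of all genes were. It was Tespa1, a signalling protein needed for thymocyte selection, at 0.828 (0.811 to 0.846), and with median-of-ratios factors none was past the fold. In Itm2a+ S1pr1- and Nr4a1/Egr-high barcodes 0 were past the fold, where 3.23% and 6.10% of all genes were. In Rag1+ barcodes 2 were higher and 8 lower in Cgas KO, among the lower ones Ubash3b at 0.667, Tespa1 at 0.689 and the phospholipase Plcg1 at 0.741, in the state where 12.7% of all genes were past the fold higher and 13.7% lower. In S1pr1+ barcodes 3 of the measured pathway genes were past the fold, where 3.94% of all genes were. These were the kinase Txk at 1.22, Tespa1 at 0.821 and Ubash3b at 0.816. In Foxp3+ barcodes 7 were past the fold, 2 higher and 5 lower, where 21.2% of all genes were. The adaptor Lax1 was furthest from 1, at 0.508 (0.358 to 0.710). In Cd8 lineage barcodes 5 of 47 were past the fold, where 9.92% of all genes were. Of the 5, 3 were higher, among them Ctla4 at 1.42 (1.13 to 1.79), and 2 lower, Lax1 at 0.693 and Tespa1 at 0.824.

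The genes whose levels most resembled each of the 9 were ranked by Pearson's r of log2(CPM + 1) over 12 profiles, 6 states in each of the 2 libraries, among 10496 genes. These profiles share libraries, and the Nr4a1/Egr-high profile shares barcodes with the stages, so r is a description. For Cd5 the nearest gene in the whole table was Cd6 (r = 0.987), followed by A430093F15Rik (0.978) and Fgf2 (0.974), and for Cd6 they were Cd5, Fgf2 (0.969) and Jak2 (0.956). For Lck they were Lpar6 (0.983), Themis (0.976) and Macir (0.976), and for Themis Lipa (0.994), Snrnp70 (0.993) and Mplkip (0.991). Cd5 ran opposite to both, with r of -0.854 to Lck and -0.825 to Themis. For Ubash3a they were Pdlim2 (0.961), Cd2 (0.960) and Rnf149 (0.956), and for Lat Ptbp1 (0.969), Khdc4 (0.965) and Rpusd4 (0.963). For Ptpn6 they were Utp20 (0.961), Dnaja1 (0.958) and Fem1a (0.957), and for Zap70 Hspa8 (0.927), Slc5a3 (0.922) and Ptpn6 (0.915). Ptpn22 had the least close neighbours, Thada (0.93), Socs3 (0.903) and Fam117b (0.899). Ptpn6 was thus the one gene of the 9 among the 3 nearest to Zap70, and Cd5 and Cd6 were the one pair of the 9 that were each other's nearest gene.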

How the data were processed

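CD4+ CCR7+ thymocytes were measured as 1 expression and 1 TCR library per genotype. The deposited matrices hold UMI counts per gene and barcode that the authors made with Cell Ranger, version 8.0.1 per the file headers and 7.0 per the submitters' processing notes, which also name Seurat 5.1.0 and mm10; the deposited TCR tables were used only for counts of beta chains. Barcodes with at least 2000 UMIs, at least 500 genes and at most 10% mitochondrial UMIs were kept, and doublets were kept. UMIs were summed per library and state and scaled to CPM (scipy 1.17.1 and pandas 2.3.3 with numpy 2.4.6, under Python 3.11.15). Intervals are exact (Poisson for CPM, conditional for ratios). A gene was past the fold at 1.2 between genotypes or 1.5 between states. The background is the genes with at least 100 UMIs in both profiles together and 20 CPM in 1. Gates needed 1 UMI of the named gene, Foxp3+ and Cd8 lineage barcodes were taken out of the stages, and Cd8 lineage needed 2 UMIs of Cd8a and Cd8b1 without Cd4. All 9 genes are drawn in the figures of state ratios and of genotype ratios, but the text does not give each of them in every comparison. Of the other pathway genes up to 6 were named, from among those with ratios furthest from 1. Alternatives changed filters, depth, gates and scaling (edgeR 4.0.16 for TMM). The ratio intervals and fold calls were checked on Poisson counts drawn with known folds from summed WT profiles. Such draws meet the assumption of the intervals by design, and gating and summing were not tested on them. The genes, lists and gates were chosen with earlier results of these data known. Summed counts per barcode carry no gene length, so levels are compared within a gene. In barcodes of 20 to 199 UMIs, a measure of free RNA, the levels in Cgas KO and WT were 568.4 and 555.6 CPM for Cd5, 484.1 and 443.1 CPM for Cd6, 1486 and 1353 CPM for Lck and 592.6 and 437.4 CPM for Themis, higher for each of these 4 than over all kept barcodes. Zap70, Ptpn6, Ptpn22 and Ubash3a were also higher there. Lat was lower, at 843.1 and 840.4 CPM against 851.7 and 887 CPM over all kept barcodes.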

Additional observations from a re-analysis of the deposited data

Results flagged for a closer look

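Cd5 was higher in Cgas KO than in WT among Cd8 lineage barcodes, at 270.9 and 243.8 CPM (ratio 1.11, 1.04 to 1.19), and lower in Cgas KO among S1pr1+ barcodes, at 497.8 and 524.7 CPM (ratio 0.949, 0.925 to 0.973). The pair was picked out because the 2 states lie on opposite sides of 1 with intervals that exclude 1. The difference between the states was not tested, as each genotype had 1 library. Over the alternatives the Cd5 ratio ran between 1.03 and 1.30 in Cd8 lineage barcodes and between 0.943 and 0.960 in S1pr1+ barcodes. The Cd8 lineage difference was not even across that state. With 2 to 3 Cd8a and Cd8b1 UMIs, Cd5 was at 350.4 CPM in Cgas KO and 279.9 CPM in WT. With 4 to 7 it was at 270 and 227.8 CPM, and with 8 or more at 243.7 and 239.4 CPM. Cd8 lineage barcodes with Itm2a and no S1pr1 UMI had 304.5 and 245.1 CPM, and those with S1pr1 had 326.2 and 331.9 CPM.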

How the results depend on the processing

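No paired analysis was possible because each genotype had 1 library, and for the same reason no replicate could be left out. Counts of the 9 genes past the fold were within 1.5 times the reported count in 276 of 323 alternatives, those of the other pathway genes in 275 of 304, and of 2736 single-gene alternatives 1 called ratio reversed, Themis between genotypes in Foxp3+ barcodes, at 1.12 among barcodes of 3000 to 6000 UMIs, while 472 others lay outside the interval of the reported ratio and 93 of all lay on the other side of 1. For the rest the cause was not tested, and thinning and gates at 2 UMIs also changed which barcodes entered a state. The counts below stand without the share of all genes past the fold at the same setting, so they are no result about these genes. That share also moves with the setting. For Foxp3+ over conventional it was 8.46% in Cgas KO and 6.82% in WT, and 21.1% and 14.3% with Foxp3 at 2 or more UMIs. Between genotypes, of the 9, Rag1+ gave 4 when thinned, with gates at 2 UMIs or at 1.1-fold, and 2 at 3000 to 6000 UMIs or with the mean of barcode CPM. Foxp3+ gave 3 when thinned, 2 with gates at 2 UMIs, and 0 with a minimum of 1000 UMIs, at 3000 to 6000 UMIs, with the mean of barcode CPM or without barcodes of 2 or more beta chains. Cd8 lineage and Nr4a1/Egr-high each gave 1 at 3000 to 6000 UMIs and at 1.1-fold. Between states at 1.2-fold the counts in Cgas KO and WT were 7 and 7 for Itm2a+ S1pr1- over Rag1+, 2 and 2 for S1pr1+ over Itm2a+ S1pr1-, 8 and 7 for S1pr1+ over Rag1+, 3 and 4 for Nr4a1/Egr-high, 3 and 3 for Foxp3+, and 4 and 6 for Cd8 lineage. At 1.5-fold, Itm2a+ S1pr1- over Rag1+ gave 4 in WT when thinned or with gates at 2 UMIs; S1pr1+ over Rag1+ gave 5 in Cgas KO when thinned or with TMM or median-of-ratios factors, and 4 in WT when thinned, with TMM or with the mean of barcode CPM. Nr4a1/Egr-high gave 2 when thinned or at 3000 to 6000 UMIs in both libraries and, in WT, also 2 at a sum of 10 UMIs, without barcodes of 2 or more beta chains and with Foxp3+ and Cd8 lineage left in the stages. Foxp3+ gave 3 in Cgas KO and 2 in WT with gates at 2 UMIs, and in WT 1 when thinned or with the mean of barcode CPM and 3 at 3000 to 6000 UMIs. Of the other pathway genes between genotypes, all kept barcodes gave 2 when thinned, at 3000 to 6000 UMIs or with the mean of barcode CPM and 0 with median-of-ratios factors; Itm2a+ S1pr1- gave 1 at a minimum of 3000 UMIs, when thinned and at 3000 to 6000 UMIs; S1pr1+ gave 6 when thinned; Nr4a1/Egr-high gave 4 when thinned and 5 at 3000 to 6000 UMIs; Cd8 lineage gave 3 with the mean of barcode CPM; and Rag1+ gave 16 with gates at 2 UMIs. Between states, Itm2a+ S1pr1- over Rag1+ gave 22 when thinned and 15 with the mean of barcode CPM in WT, S1pr1+ over Itm2a+ S1pr1- gave 7 in WT when thinned or with gates at 2 UMIs, and S1pr1+ over Rag1+ gave 21 in WT when thinned. Nr4a1/Egr-high gave 8 in Cgas KO and 7 in WT when thinned, and in WT 5 at 3000 to 6000 UMIs or with the mean of barcode CPM and 6 at a sum of 10 UMIs. Foxp3+ gave 9 in Cgas KO and 7 in WT when thinned, 11 and 4 with gates at 2 UMIs, 3 in Cgas KO at a minimum of 3000 UMIs, and in WT 7 at 3000 to 6000 UMIs and 4 without barcodes of 2 or more beta chains.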
